A study of Homo sapiens with 5 samples.

Results

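Tight junction genes were followed in gefitinib-resistant and gefitinib-sensitive lung adenocarcinoma cells. The 9 genes were CLDN1, CLDN3, CLDN4 and CLDN7 (claudins), OCLN and MARVELD2 (MARVEL proteins), TJP1 and TJP3 (ZO scaffolds) and F11R (an immunoglobulin-like adhesion protein). They were taken by gene symbol from a table of 37181 entries, and where a symbol had several entries, the one with the highest mean over the 5 libraries was used. RNA sequencing covered 3 libraries of HCC827/GR (replicates 1, 2 and 3) and 2 of HCC827/GS (replicates 2 and 3). HCC827 is a human lung adenocarcinoma line with a deletion in EGFR exon 19, and both groups carry it. HCC827/GS is the gefitinib-sensitive parental line, and HCC827/GR was derived from it by rising doses of gefitinib, an EGFR kinase inhibitor, for more than 6 months. Each group is 1 line. Whether HCC827/GR was a single clone, whether it was in gefitinib at harvest and whether replicates were separate cultures is not given in the sources used here, so p-values measure only the spread between these libraries, which may be technical.

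Tight junctions seal the space between neighbouring epithelial cells near their apical side. Claudins span the membrane and form the strands, and their types decide whether the seal is tight or leaks ions. Occludin and tricellulin are further strand proteins, the second concentrated where 3 cells meet, and JAM-A is a single-pass adhesion protein beside the strands. The ZO proteins lie under the membrane, bind claudin tails and link them to actin. In airway and other epithelia these genes are part of the epithelial state, and loss of several of them is a textbook feature of a shift towards a mesenchymal state.

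CLDN1, which makes a sealing claudin, was 4.15-fold higher in HCC827/GR, while MARVELD2 (tricellulin) was 2.87-fold and TJP3 (ZO-3) 26.5-fold lower by the ratio of mean FPKM. FPKM is a level scaled by transcript length and by sequencing depth. Of the 9 genes, 8 reached a mean of 0.5 FPKM and were tested with limma on log2(FPKM + 1), and an adjusted p under 0.05 over all 16189 entries tested was taken as a change. By that rule 1 gene rose (CLDN1), 3 fell (CLDN7, MARVELD2 and TJP3) and 4 did not pass (CLDN3, CLDN4, OCLN and TJP1). TJP3 reached 0.5 FPKM only through HCC827/GS, and an entry let in that way could hardly be called higher. Over all entries tested 5.26% rose and 5.71% fell. By a rule of at least a 2-fold change on the log2(FPKM + 1) scale with an unadjusted p under 0.05, 1 of the 8 genes was higher (CLDN1) and 2 were lower (MARVELD2 and TJP3), against 2.96% and 3.97% of all entries. The groups did not overlap in 6 of the 8 genes, 1 higher and 5 lower in HCC827/GR, where 22.8% of all entries lay wholly higher and 23.4% wholly lower. The median difference of the 8 genes was -0.76 on the log2(FPKM + 1) scale, and that of all entries was 0.0014. The members were chosen with earlier results known, so these counts describe the genes and are no test of them as a set.

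**Figure D1:**
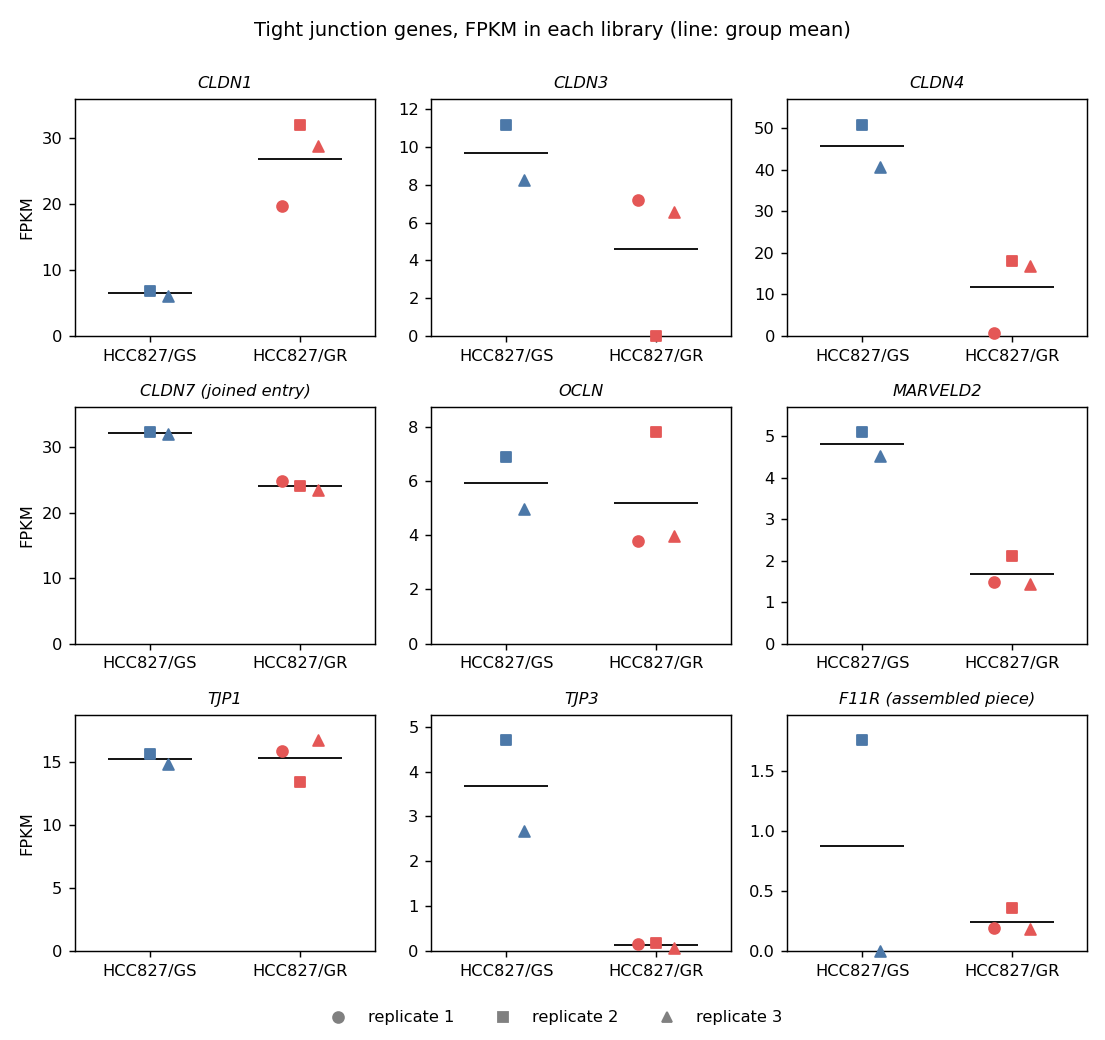
FPKM (y axis, linear, from 0) of each of the 9 tight junction genes in the 5 libraries, with blue points for HCC827/GS, red points for HCC827/GR, a marker shape for each replicate number and a line at each group mean. CLDN1 lies higher in all 3 HCC827/GR libraries, MARVELD2 and TJP3 lie lower, and TJP1 lies at 13.4 to 16.7 FPKM in all 5 libraries.

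Several limits of the table touch these genes. The entries were assembled from the reads, and 1491 of them join 2 or more annotated genes. The CLDN7 entry holds 30 transcripts, of which 8 are of CLDN7, 12 of CTDNEP1 and 6 of GABARAP, so its value cannot be given to CLDN7 alone. The entry named F11R is an assembled piece without an annotated transcript. Of 73 protein-coding entries with a single exon that reached 5 FPKM, 52 were listed at 0 in some library. Among entries with more exons it was 12 of 5491. CLDN3 has a single exon. CLDN4 counts among the entries with more exons, but its coding transcripts have 1 and 2 exons. Whether this bears on its 0.665 FPKM in HCC827/GR replicate 1 was not tested. FPKM holds no read counts, so the depth behind each value is unknown.

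Of the 4 marker lists, the epithelial one had by far the highest summed FPKM in both groups, and its sum was lower in HCC827/GR. These lists do not settle how epithelial HCC827/GR was. The summed FPKM of the 5 epithelial markers with an entry (EPCAM, CDH1, KRT8, KRT18 and KRT19) was 1063 to 1182 in HCC827/GS and 443 to 573 in HCC827/GR. Of the 5 markers 4 fell, where 5.71% of all entries tested fell. KRT8 did not pass, with a log2 difference of -0.75 (limma, adjusted p = 0.101). KRT7 had no entry of its own. Summed leukocyte markers (3 with an entry) reached at most 0.306 FPKM in HCC827/GS and 0.222 in HCC827/GR, and fibroblast markers (5 of 5) at most 0.885 and 1.15. Summed endothelial markers (3 of 3) lay at 3.38 to 4.44 FPKM in HCC827/GS and at most 0.0333 in HCC827/GR. That sum came almost wholly from an assembled piece named PECAM1, and the entry with the annotated PECAM1 transcripts reached at most 0.249 FPKM. The part of these markers in the differences of the tight junction genes was not tested. In bulk RNA fewer cells of a type and less RNA per cell cannot be told apart.

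Upstream sequences are shown for CLDN1, the member that rose, and MARVELD2, a member that fell, and short sites are shown as examples where a searched motif was found in CLDN7, OCLN and TJP3. They come from RefSeq (GRCh38.p14), which matched 8 of the 9 genes with 14 start sites. The motifs searched in the 250 bases before each start were the E-box CAGGTG, which reads CACCTG on the other strand and forms the core letters that SNAIL and ZEB zinc-finger repressors recognise, and AACCNGTT, which reads AACNGGTT on the other strand and holds the letters of grainyhead-like epithelial activators. Neither motif was found for CLDN1 or MARVELD2, so their stretches have no capitals. Both stretches lie outside the exons of coding transcripts of their own gene. The CLDN1 stretch holds the annotated start of CLDN16 on the other strand (position 190322541).
CLDN1 (chr3:190322476-190322696, minus strand): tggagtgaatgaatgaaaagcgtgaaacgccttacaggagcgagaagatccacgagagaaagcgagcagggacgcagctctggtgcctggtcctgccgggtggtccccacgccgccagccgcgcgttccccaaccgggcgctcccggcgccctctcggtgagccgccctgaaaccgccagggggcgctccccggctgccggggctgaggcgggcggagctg
MARVELD2 (chr5:69414866-69415064, plus strand): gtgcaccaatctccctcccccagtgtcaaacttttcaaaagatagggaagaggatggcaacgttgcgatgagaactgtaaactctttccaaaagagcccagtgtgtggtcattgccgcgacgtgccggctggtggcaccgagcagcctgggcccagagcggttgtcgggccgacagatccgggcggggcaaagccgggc

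The E-box was found in 5 of the 14 windows, of CLDN7, OCLN, TJP1 and TJP3, and in 17.5% of all 35116 RefSeq windows of that length. One of the 2 CLDN7 starts (position 7262478) held 4 E-boxes, and the other (7263213) held none. The first was the highest of the 14 windows and was singled out after the search. Over all windows 0.122% reached that number. Both CLDN7 starts are starts of main annotated transcripts (APPRIS principal), and the sites of the 4 E-boxes overlap an exon of a coding CLDN7 transcript. Of the other starts with an E-box, 1 of the 2 OCLN starts is the start of a main transcript, while the TJP3 start lies 13628 bases and the TJP1 start 146546 bases from the nearest main one. The starts of TJP1 and TJP3 closest to a main transcript held none. AACCNGTT was found for none of the 8 genes and in 1.5% of all windows. Capitals mark the E-boxes in the sites that follow, and the sites of TJP1 and of the other OCLN start are not shown. A match is a description of letters, and binding was not measured.
CLDN7 (chr17:7262479-7262508, minus strand): tacatatactCAGGTGcgcccCACCTGtcc
CLDN7 (chr17:7262596-7262625, minus strand): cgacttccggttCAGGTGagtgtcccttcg
CLDN7 (chr17:7262635-7262664, minus strand): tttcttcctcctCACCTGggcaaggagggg
OCLN (chr5:69492645-69492674, plus strand): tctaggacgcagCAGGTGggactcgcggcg
TJP3 (chr19:3721707-3721736, plus strand): gagacctggaggaggaagaggggCAGGTGc

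Among the claudins, CLDN1 and CLDN4 moved in opposite directions in FPKM. CLDN1, a barrier-forming claudin (chromosome 3, 190305701 to 190322475, minus strand, GRCh38, GENCODE 29), stood at 6.85 and 6.09 FPKM in HCC827/GS replicates 2 and 3. In HCC827/GR it reached 19.6, 32.0 and 28.8 FPKM, in the order of the replicate numbers. Every HCC827/GR library was higher than both HCC827/GS libraries, and the lowest of them was replicate 1. The means were 6.47 ± 0.539 (SD, n = 2) and 26.8 ± 6.44 FPKM (SD, n = 3), and the log2(FPKM + 1) difference was 1.87 with an SE of 0.229 and a 95% interval of 1.27 to 2.47 (limma, adjusted p = 0.0146). The rise did not pass without HCC827/GS replicate 2 (adjusted p = 0.0903), HCC827/GS replicate 3 (adjusted p = 0.0917) or HCC827/GR replicate 3 (adjusted p = 0.0543), and over all alternatives the adjusted p lay between 0.0135 and 0.224.

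CLDN4, a claudin that forms a barrier to sodium in many epithelia (chromosome 7, 73799542 to 73832693, plus strand), had the highest FPKM of the 4 claudins in HCC827/GS, with 50.8 and 40.6. HCC827/GR replicates 2 and 3 had 17.9 and 16.7 FPKM, and replicate 1 had 0.665. All 3 were lower than both HCC827/GS libraries, and replicate 1 stood far below the other two. The means were 45.7 ± 7.17 FPKM (SD, n = 2) and 11.8 ± 9.64 (SD, n = 3), a log2 difference of -2.50 with an SE of 1.18 and a 95% interval of -5.58 to 0.59, which did not pass (limma, adjusted p = 0.262). Without HCC827/GR replicate 1 the difference was -1.34 with an adjusted p of 0.0498, and over all alternatives the adjusted p lay between 0.0498 and 0.524.

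CLDN3 (chromosome 7, 73768997 to 73770270, minus strand) lies 29.3 kb from CLDN4. It had 11.2 and 8.23 FPKM in HCC827/GS, 7.22 and 6.57 in HCC827/GR replicates 1 and 3, and was listed at 0 in HCC827/GR replicate 2. Both positive HCC827/GR values were below the lower HCC827/GS value. The log2 difference of -1.42 (SE 1.02, 95% interval -4.09 to 1.25) did not pass (limma, adjusted p = 0.440), and without HCC827/GR replicate 2 it was -0.43 with an adjusted p of 0.278. Over all alternatives the adjusted p lay between 0.278 and 0.774. CLDN3 and CLDN4 each had 1 low library in HCC827/GR, and it was not the same one.

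The CLDN7 entry (CLDN7 itself at chromosome 17, 7259903 to 7263983, minus strand) had 32.2 and 32.0 FPKM in HCC827/GS and 24.8, 24.0 and 23.4 in HCC827/GR. The values were tight within each group and did not overlap. It fell by 0.40 on the log2 scale (SE 0.0834, 95% interval -0.62 to -0.19, limma, adjusted p = 0.0486), the smallest change of the 4 members that passed. The call was lost in each of the 5 fits without 1 library and in 11 of the 14 alternatives with a test, with adjusted p between 0.0458 and 0.181. What share of it belongs to CLDN7 and what to CTDNEP1 or GABARAP was not tested.

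**Figure D2:**
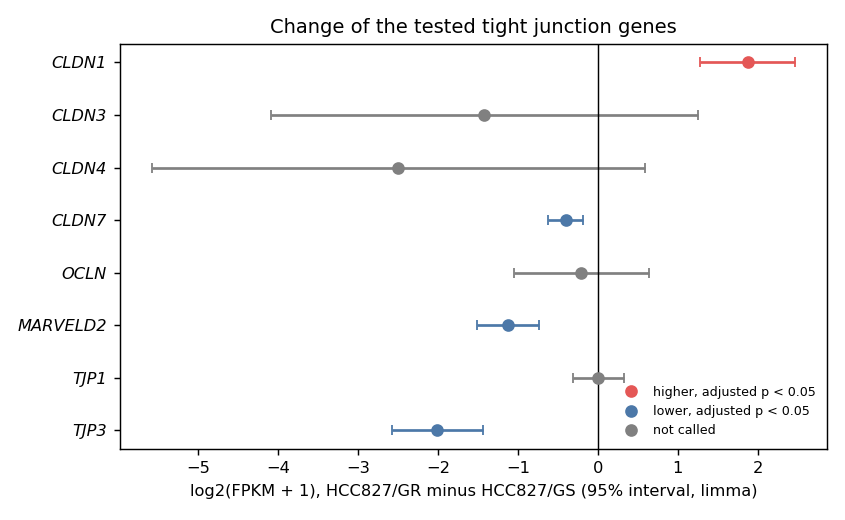
Difference of log2(FPKM + 1), HCC827/GR minus HCC827/GS (x axis), for the 8 tight junction genes tested, with points for the limma estimate and bars for the 95% interval. The interval of CLDN1 lies wholly above 0, those of CLDN7, MARVELD2 and TJP3 lie wholly below it, and those of CLDN3 and CLDN4 are the widest.

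The make-up of the claudins differed between the groups. CLDN1 made up 6.78% and 7.0% of the summed FPKM of the 4 claudins in HCC827/GS and 37.6%, 43.3% and 38.2% in HCC827/GR. CLDN4 made up 50.2% and 46.7% in HCC827/GS and 1.27%, 24.3% and 22.1% in HCC827/GR. In each HCC827/GS library CLDN4 exceeded CLDN1, and in each HCC827/GR library CLDN1 exceeded CLDN4. The CLDN7 entry took 31.9% and 36.8% in HCC827/GS and 31.0% to 47.4% in HCC827/GR, and CLDN3 took 9.47% and 11.1% in HCC827/GS and 0% to 13.8% in HCC827/GR. The summed FPKM was 101 and 87.0 in HCC827/GS and 52.3, 73.9 and 75.5 in HCC827/GR. With the joined CLDN7 entry left out, CLDN1 took 9.96% and 11.1% in HCC827/GS and 55.3% to 71.3% in HCC827/GR. The order of CLDN1 and CLDN4 within a library cannot depend on which other claudins are counted, so these shares are no check of it. CLDN2, not one of the 9 genes, was added after its values were seen. Over CLDN1, CLDN2, CLDN3 and CLDN4 the summed FPKM was 74.1 and 59.0 in HCC827/GS and 37.2, 92.1 and 94.5 in HCC827/GR. In HCC827/GR CLDN2 then took 26.1%, 45.8% and 44.8%, and CLDN1 took 52.7%, 34.7% and 30.5%. Shares were not tested, since a share of one claudin moves with the others.

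**Figure D3:**
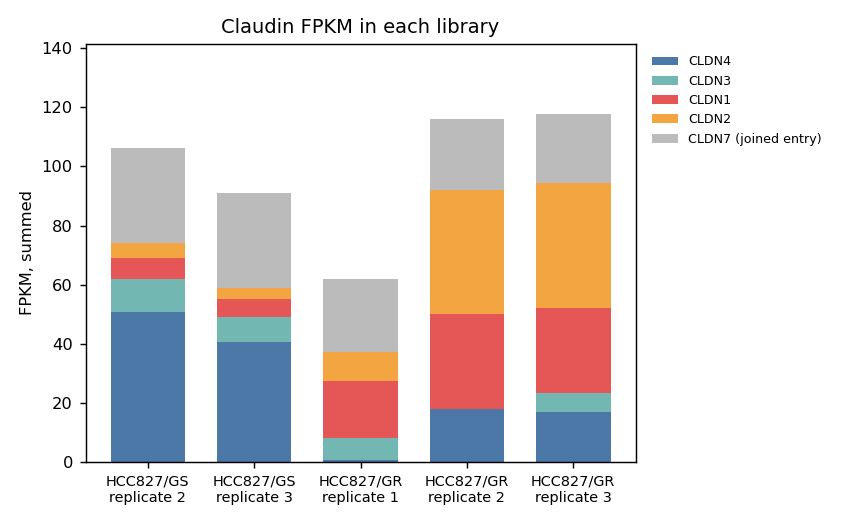
FPKM of CLDN4, CLDN3, CLDN1, CLDN2 and the joined CLDN7 entry stacked in bars for each of the 5 libraries (y axis, linear, from 0), with CLDN2, which is not one of the 9 genes, added after its values were seen. The CLDN4 segment is 40.6 to 50.8 FPKM in HCC827/GS and at most 17.9 in HCC827/GR, the CLDN1 segment at most 6.85 in HCC827/GS and at least 19.6 in HCC827/GR, and the CLDN2 segment 9.70 to 42.4 in HCC827/GR.

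The MARVEL proteins differed from each other. MARVELD2, which makes tricellulin and seals the points where cells meet at corners (chromosome 5, 69415065 to 69444330, plus strand), had 5.09 and 4.53 FPKM in HCC827/GS. In HCC827/GR the values were 1.49, 2.11 and 1.43 FPKM. The highest HCC827/GR library was less than the lower HCC827/GS library. The means were 4.81 ± 0.397 (SD, n = 2) and 1.68 ± 0.378 FPKM (SD, n = 3), and the log2 difference was -1.12 (SE 0.149, 95% interval -1.51 to -0.74, limma, adjusted p = 0.0176). The fall did not pass without HCC827/GS replicate 2 (adjusted p = 0.106), HCC827/GS replicate 3 (0.0835), HCC827/GR replicate 1 (0.0682) or HCC827/GR replicate 3 (0.0544), and over all alternatives the adjusted p lay between 0.0164 and 0.247.

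OCLN (occludin, chromosome 5, 69492292 to 69558104, plus strand) lies 48.0 kb from MARVELD2. Its main entry had 6.89 and 4.97 FPKM in HCC827/GS and 3.78, 7.79 and 3.97 in HCC827/GR. The highest and the lowest value were both in HCC827/GR, so the groups overlapped. The log2 difference was -0.21 (SE 0.324, 95% interval -1.05 to 0.63, limma, adjusted p = 0.734). A fall of up to 1.05 on the log2 scale is inside that interval, so the data do not show that OCLN was equal in both groups. A second, assembled OCLN entry at lower levels had 1.79 and 1.36 FPKM in HCC827/GS and 0.081, 0.191 and 0.266 in HCC827/GR, without overlap. It fell, with a log2 difference of -1.12 (SE 0.157, limma, adjusted p = 0.0200). This entry also passed the filter only through HCC827/GS, so it could hardly be called higher. The call was lost without HCC827/GS replicate 3 (adjusted p = 0.0634), HCC827/GR replicate 1 (0.0685), HCC827/GR replicate 2 (0.0691) or HCC827/GR replicate 3 (0.0548), without HCC827/GS replicate 2 the entry was under the filter, and over all alternatives the adjusted p lay between 0.0141 and 0.197. With both entries summed the log2 difference was -0.46 (adjusted p = 0.419). OCLN shares sequence with the pseudogene OCLNP1 on the same chromosome, so its value is uncertain where reads could be split between them.

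The ZO scaffolds parted. TJP1 (ZO-1, chromosome 15, 29699367 to 29968865, minus strand), a scaffold that nucleates junction assembly, had 15.6 and 14.8 FPKM in HCC827/GS. In HCC827/GR it had 15.9, 13.4 and 16.7 FPKM. The HCC827/GR values spanned those of HCC827/GS. The log2 difference was 0.0053 (SE 0.124, 95% interval -0.32 to 0.33, limma, adjusted p = 0.984), which leaves room for a change of about 0.3 either way. These are RNA levels and do not speak for the protein. The paper reports less ZO-1 protein in HCC827/GR by Western blot.

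TJP3 (ZO-3, chromosome 19, 3708109 to 3750813, plus strand), the ZO protein found mainly in epithelial cells, had 4.70 and 2.67 FPKM in HCC827/GS. It had 0.159, 0.178 and 0.0804 FPKM in HCC827/GR. All 3 HCC827/GR libraries were near the bottom of the scale and under 0.5 FPKM. TJP3 was therefore tested only through its HCC827/GS values, and an entry let in that way could hardly be called higher. The means were 3.69 ± 1.43 (SD, n = 2) and 0.139 ± 0.0517 FPKM (SD, n = 3). The log2(FPKM + 1) difference was -2.01 (SE 0.218, 95% interval -2.58 to -1.44, limma, adjusted p = 0.0117), while the log2 ratio of the mean FPKM was -4.73, because the pseudocount of 1 shrinks changes of low genes. The fall did not pass without HCC827/GR replicate 1 (adjusted p = 0.0543), passed without each of the other 4 libraries, and over all alternatives the adjusted p lay between 0.0110 and 0.218.

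F11R (JAM-A, chromosome 1, 160995211 to 161021348, minus strand), which adheres to its like on the next cell, was not tested under its symbol. That entry, the assembled piece, had 1.76 and 0 FPKM in HCC827/GS and 0.191, 0.364 and 0.182 in HCC827/GR, and its mean was under 0.5. The annotated F11R transcripts, 5 of 19, were in an entry named TSTD1, which was looked up after the values were seen. That entry had 16.1 and 20.9 FPKM in HCC827/GS and 4.38, 7.35 and 5.46 in HCC827/GR, with no overlap. It fell by 1.55 on the log2 scale (SE 0.230, 95% interval -2.14 to -0.95, limma, adjusted p = 0.0232), and what part of the fall belongs to F11R was not tested. The call was lost without HCC827/GS replicate 2 (adjusted p = 0.0925), HCC827/GS replicate 3 (0.113), HCC827/GR replicate 1 (0.0628) or HCC827/GR replicate 3 (0.0726), and over all alternatives the adjusted p lay between 0.0208 and 0.245. The paralogs JAM2 and JAM3 reached at most 0.0907 and 0.223 FPKM in any library.

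The membrane claudins were then set against the ZO scaffolds. The mean log2(FPKM + 1) of the 4 claudins was 4.33 and 4.11 in HCC827/GS and 3.21, 3.48 and 4.14 in HCC827/GR, a difference of -0.61 with overlapping groups. The mean of TJP1 and TJP3 was 3.28 and 2.93 in HCC827/GS and 2.14, 2.04 and 2.13 in HCC827/GR, a difference of -1.0 without overlap. The claudin mean minus the scaffold mean was 1.05 and 1.18 in HCC827/GS and 1.06, 1.44 and 2.01 in HCC827/GR, so the groups overlapped. Within the claudins CLDN1 rose while the CLDN7 entry fell, and within the scaffolds TJP3 fell while TJP1 did not pass. Against TJP1 alone the claudins were lower in HCC827/GR by -0.62, and against TJP3 alone they were higher by 1.40. No test was made on these means, since the genes were chosen with results known.

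**Figure D4:**
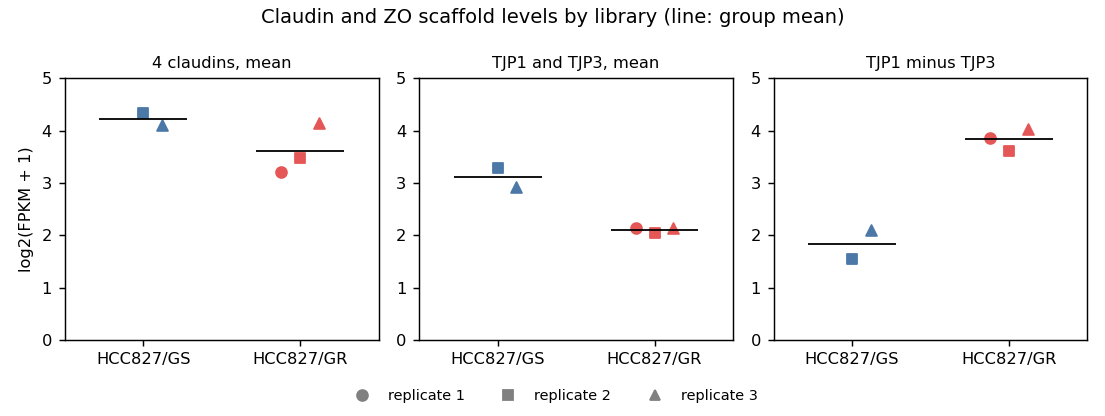
Mean log2(FPKM + 1) of the 4 claudins, the same for TJP1 and TJP3, and the difference of TJP1 minus TJP3 (y axes) in each library, with lines at the group means. The claudin means overlap between the groups, the scaffold means do not, and TJP1 minus TJP3 goes from 1.54 and 2.11 in HCC827/GS to between 3.61 and 4.04 in HCC827/GR.

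The other genes of the tight junction were taken from a list of 54, of which 50 had an entry and 31 were tested. Of these 3 rose, 4 fell and 24 did not pass, where 5.26% of all entries tested rose and 5.71% fell. The median difference of the 31 genes was -0.15 on the log2(FPKM + 1) scale. The fallen genes were LSR, CGN, CGNL1 and CRB3, and those that rose were CLMP, PARD3 and RAB13. By group, 0 of 6 other claudins tested passed the limma test or a Ballgown-style model. Of them 2 had an unadjusted limma p under 0.05 (CLDN2 and CLDN12, named after their values were seen). The CLDN12 entry lacks the annotated transcripts of that gene. It was listed at 0 in both HCC827/GS libraries and passed the filter only through HCC827/GR. In the other groups 1 of 2 MARVEL proteins or angulins fell, 1 of 2 immunoglobulin-like proteins rose, 3 of 13 plaque proteins fell and 1 rose, and 1 of 8 regulators rose.

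Of the genes that fell, LSR encodes angulin-1, which recruits tricellulin to the corners between cells. It had 14.8 and 12.6 FPKM in HCC827/GS and 2.43, 3.59 and 3.17 in HCC827/GR, a log2 difference of -1.86 (SE 0.163, limma, adjusted p = 0.00793). The groups lay far apart, as those of MARVELD2 did on a lower level. With the 2 LSR entries summed the log2 difference was -1.53 (limma, adjusted p = 0.00782). CGN (cingulin), a plaque protein that binds ZO proteins and myosin, had 14.4 and 10.6 FPKM in HCC827/GS and 1.83, 1.76 and 1.90 in HCC827/GR, a log2 difference of -2.24 (SE 0.148, limma, adjusted p = 0.00444). Its paralog CGNL1 (paracingulin) had 4.11 and 4.31 FPKM in HCC827/GS and 2.09, 2.07 and 1.87 in HCC827/GR, and it fell by 0.79 (limma, adjusted p = 0.0129). CRB3, an apical polarity protein, had 5.90 and 4.67 FPKM in HCC827/GS and 1.63, 1.89 and 1.29 in HCC827/GR, and it fell by 1.27 (limma, adjusted p = 0.0145). CGN passed in each of the 5 fits without 1 library, LSR failed without HCC827/GS replicate 2 (adjusted p = 0.0608), CGNL1 passed in 1 of the 5 (adjusted p 0.0445 to 0.0710) and CRB3 in 2 of the 5 (0.0444 to 0.0858).

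Of the genes that rose, CLMP is an adhesion protein related to CXADR. It had 1.5 and 2.03 FPKM in HCC827/GS and 10.0, 9.59 and 8.05 in HCC827/GR, a log2 difference of 1.89 (SE 0.145, limma, adjusted p = 0.00580). Its groups lay far apart, and it passed in each of the 5 fits without 1 library. PARD3, a polarity scaffold, had 3.40 and 2.94 FPKM in HCC827/GS and 5.25, 5.77 and 5.13 in HCC827/GR, a log2 difference of 0.62 (limma, adjusted p = 0.0309). With the 2 PARD3 entries summed it was 0.89 (limma, adjusted p = 0.0190). RAB13, a small GTPase of junction traffic, had 9.95 and 7.97 FPKM in HCC827/GS and 18.9, 16.6 and 26.1 in HCC827/GR, a log2 difference of 1.10 (limma, adjusted p = 0.0463). Neither PARD3 (adjusted p 0.0710 to 0.114) nor RAB13 (0.0637 to 0.186) passed in any of the 5 fits without 1 library. CLDN2, a claudin that forms cation pores and was singled out after its values were seen, had 5.25 and 4.0 FPKM in HCC827/GS and 9.70, 42.2 and 42.4 in HCC827/GR, with a log2 difference of 2.28 (SE 0.697) that did not pass (limma, adjusted p = 0.119).

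**Figure D5:**
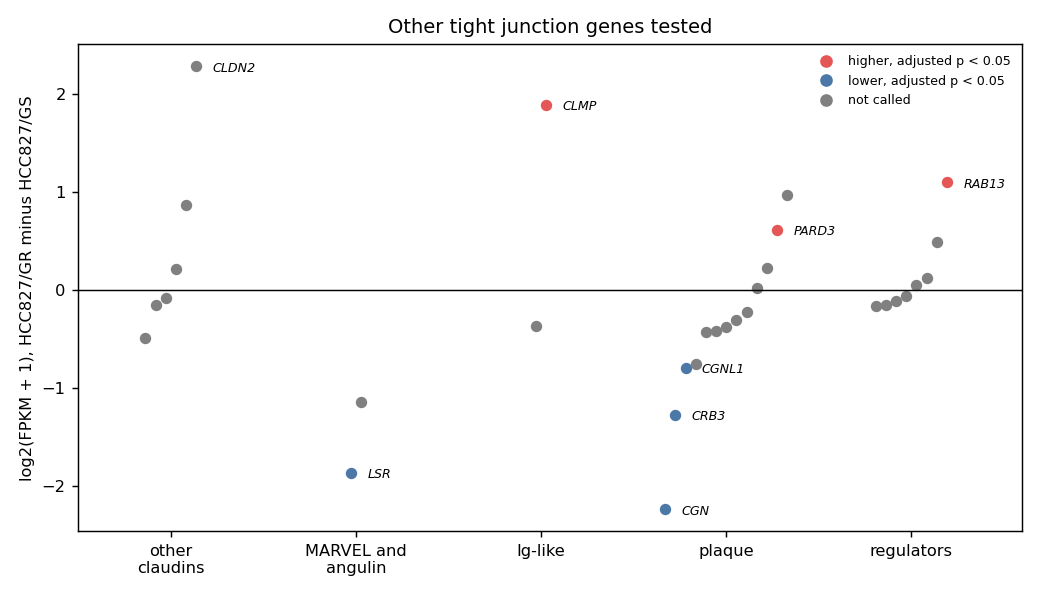
Difference of log2(FPKM + 1), HCC827/GR minus HCC827/GS (y axis), of the 31 other tight junction genes tested, grouped by role (x axis), in red where higher and in blue where lower with an adjusted p under 0.05, and in grey otherwise. Offsets along the x axis only separate the points. The 4 genes that fell lie between -0.79 and -2.24 and the 3 that rose between 0.62 and 1.89.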

How the data were processed

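The authors mapped reads with Bowtie2 and TopHat2, assembled them with StringTie and deposited FPKM values per assembled entry. Their notes name hg18, and no versions are given. The labels describe a small-RNA library and the methods an rRNA-depleted mRNA library, and this was not settled. From the FPKM values, the 16189 entries whose mean in the 5 libraries was 0.5 FPKM or more were tested as log2(FPKM + 1) with limma 3.58.1 (lmFit, eBayes with trend, two-sided, R 4.3.3), with Benjamini-Hochberg adjustment over all of them. The 1 further FPKM column in the table was not used. Named genes were the 9 members, every listed other gene with an adjusted p under 0.05, JAM2, JAM3 and the cell type markers. CLDN2 and CLDN12 were named after their values were seen. One further listed gene is left out of the text. The members and lists were chosen with earlier results of these data known. Gene positions came from GENCODE 29 (GRCh38) by Ensembl transcript, promoters from RefSeq. Alternatives changed the pseudocount, filter, scaling, model and libraries. On simulated data of all 16189 entries, 71 of 100 entries changed by 2 on the log2 scale were called. So were 49 of 100 changed by 1 and 8 unchanged ones. The changed entries were drawn only from those with higher mean levels, above the means of CLDN3, OCLN, MARVELD2 and TJP3. The rates therefore do not cover these members.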

Additional observations from a re-analysis of the deposited data

How the results depend on the processing

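Results were recomputed with other pseudocounts, filters, scalings, models and with each library left out. The member count of 1 higher and 3 lower became 0 and 0 under a Ballgown-style model with a library-size covariate (all entries 4 and 9, with 2944 at an unadjusted p under 0.05) and 0 and 0 with a replicate block in limma (all entries 0 and 0, with 3545 at an unadjusted p under 0.05). The other tight junction genes, 3 higher and 4 lower, were 0 and 0 in both, and 1 higher with no filter on low values, where all entries gave 504 higher and 757 lower against 851 and 924. Replicates 2 and 3 were the only shared numbers, their deviations correlated at 0.033 and 0.015, and the sources used here name no pairing. With 2 HCC827/GS libraries these correlations cannot decide whether libraries of the same number were paired. The block fits more terms to the same libraries. Leaving out 1 library gave 0 to 1 members higher and 1 to 2 lower, 1 to 2 other genes higher and 1 to 4 lower, and 181 to 450 entries higher and 248 to 434 lower, with fewer libraries in each fit. TJP1, near 0, changed sign with quantile normalization (-0.0059), the Ballgown-style model (-0.0092), the replicate block (-0.021) and in 3 fits without 1 library (all left-out fits -0.057 to 0.094), and passed in none. The claudin mean minus the scaffold mean (0.39) was 1.02 with a pseudocount of 0.1, and, chosen after seeing the data, -0.62 with TJP1 alone and 1.40 with TJP3 alone, as the scaffold chosen sets it. No other member changed sign in any alternative run, among them CLDN3, CLDN4 and OCLN, which did not pass in the main fit. The alternatives reuse the same libraries. A kept direction therefore does not set CLDN1, MARVELD2 and TJP3 apart. The cause of the calls lost under the Ballgown-style model, the block and the open filter was not tested. FPKM gives no depth, so what depth limits could not be stated.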
